A study of Mus musculus with 15 samples.

Results

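The chromatin contacts of 3 promoters were compared with each other in the same 3 control libraries, which are 3 of the 15 samples in the series. The promoters, here called viewpoints, are those of Slc25a37, of the paired adult α-globin genes (Hba-a1 with Hba-a2, called Hba) and of the paired adult β-globin genes (Hbb-b1 with Hbb-b2, called Hbb). They were chosen as all 3 viewpoints that were captured in the controls, so 9 columns of counts were used. The control cells were erythroid cultures from fetal livers of E12.5 mouse embryos (embryonic day) of the strain F1 C57Bl6 / CBA, and their labels list no deletion, whereas most other groups lack enhancer elements. According to the labels, the liver cells were grown for 5 to 7 days with erythropoietin, stem cell factor and dexamethasone, depleted of Ter119-positive cells, and moved for 18 hours to medium with high erythropoietin. Contact counts hold no expression values, so the labelled cell type was not checked against marker genes.

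NG Capture-C cuts cross-linked chromatin with the restriction enzyme DpnII, ligates fragments that lie close together in the nucleus, and enriches ligation products that hold a chosen promoter. The number of reads that a fragment shares with the promoter is then a relative measure of how often both were close. In mouse red cell precursors the α-globin genes are driven by an upstream group of elements, R1, R2, R3, Rm and R4, which lie in and around the introns of the neighbouring gene Nprl3. The adult β-globin genes are driven by the locus control region, a group of elements beyond the embryonic genes Hbb-bh1 and Hbb-y. Slc25a37 encodes mitoferrin 1, which imports iron into mitochondria for haem synthesis.

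Each viewpoint appears in its table as a stretch without listed fragments. In mm9 coordinates, the Hba stretches are chr11:32182317-32184781 and chr11:32194990-32197598, with 10.2 kb between them. The Hbb stretches are chr7:110961283-110963273 and chr7:110975292-110977138, with 12.02 kb between them. Slc25a37 has a single stretch, chr14:69902161-69904393. Distances below run from the midpoint of a fragment to the nearest of these stretches. The counts of both gene copies are pooled at Hba and at Hbb. A contact of the farther copy is therefore listed at too short a distance there, which cannot happen at Slc25a37. Distances, slopes and widths are to this extent unlike measures between the globin viewpoints and Slc25a37. Upstream means the side 5′ of the genes, which is towards lower coordinates at Hba and towards higher coordinates at Hbb and Slc25a37.

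The promoter sequences of the captured globin genes are shown because they show how alike the pooled copies are in a reference genome. They are RefSeq sequences of GRCm38.p6, the 250 bases before each transcript start, and their coordinates cannot be set against those in mm9. In this reference the adult β-globin genes are named Hbb-bt and Hbb-bs. Whether both parental strains of the cells carry these genes and sequences was not checked. Slc25a37 was not among the sequences used here. Capitals mark, on either strand, the motif GATAA that GATA factors recognise, the CACCC box of Krüppel-like factors, the promoter element CCAAT, and the letters TATAA of a TATA box.
Hba-a1, chr11:32283422-32283671, plus strand: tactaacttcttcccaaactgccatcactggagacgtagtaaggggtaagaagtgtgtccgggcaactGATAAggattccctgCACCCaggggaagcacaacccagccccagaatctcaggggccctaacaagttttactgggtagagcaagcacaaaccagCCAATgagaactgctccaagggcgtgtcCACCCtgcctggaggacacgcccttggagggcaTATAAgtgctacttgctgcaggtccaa
Hba-a2, chr11:32296242-32296491, plus strand: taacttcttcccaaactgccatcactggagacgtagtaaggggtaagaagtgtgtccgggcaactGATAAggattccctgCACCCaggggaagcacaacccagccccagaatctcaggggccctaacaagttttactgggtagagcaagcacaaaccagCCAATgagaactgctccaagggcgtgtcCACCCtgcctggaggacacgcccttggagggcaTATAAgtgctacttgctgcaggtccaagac
Hbb-bt, chr7:103813924-103814173, minus strand: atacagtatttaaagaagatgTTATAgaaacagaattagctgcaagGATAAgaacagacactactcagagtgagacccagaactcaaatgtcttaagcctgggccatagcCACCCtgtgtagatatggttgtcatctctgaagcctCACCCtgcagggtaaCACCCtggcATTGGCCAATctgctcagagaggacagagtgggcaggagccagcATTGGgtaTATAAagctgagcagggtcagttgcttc
Hbb-bs, chr7:103827929-103828178, minus strand: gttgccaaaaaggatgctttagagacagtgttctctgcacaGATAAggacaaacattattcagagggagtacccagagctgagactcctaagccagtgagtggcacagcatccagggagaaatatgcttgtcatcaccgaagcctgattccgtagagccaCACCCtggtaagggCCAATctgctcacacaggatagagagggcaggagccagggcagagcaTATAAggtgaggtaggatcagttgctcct

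The windows of Hba-a1 and Hba-a2 share an unbroken run of 247 identical bases. Hbb-bt and Hbb-bs are 70.9% identical over a global alignment of 261 positions. All 4 promoters hold all 4 marked motifs, as do 0.968% of the 32851 promoters of the same length in the RefSeq table. Taken singly, GATAA occurs in 22.6% of those promoters, CACCC in 52.0%, CCAAT in 33.8% and TATAA in 22.8%. A match is a run of letters and not a tested binding site. GATC, the DpnII site, occurs in the Hbb-bs window and in none of the other 3, against 41.9% of all promoters. The sources used here do not say how reads from the near-identical Hba copies were assigned.

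Per library, Slc25a37 had 28636 to 47852 reads, Hbb 95471 to 99096 and Hba 112875 to 138216, so counting error is largest at Slc25a37. Replicates of a viewpoint had Pearson correlations of 0.892 to 0.960 between their log2 profiles over 5 kb bins, which is a description across bins and not a test. Chi-square divided by its degrees of freedom was 1.16 to 2.98 between replicates, so no pair was counted as 1 library. The labels call the replicates biological, but whether they came from separate litters is not given, and p-values measure only the spread between these libraries.

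Between 54.8% and 69.6% of reads more than 2 kb from the viewpoints fell on the viewpoint's own chromosome. At Hba the same-chromosome share was 58.7%, 64.6% and 69.6% in libraries 1, 2 and 3. The Hbb shares were 54.8%, 62.9% and 67.3%. At Slc25a37 they were 60.2%, 67.3% and 68.5%. Library 1 was lowest and library 3 highest at each of the 3 viewpoints, and the ranges of the viewpoints overlapped. The counting error of a single share was small beside this: the Wilson 95% interval of the shallowest column, library 3 at Slc25a37, was 68.0 to 69.1%. Reads carry no molecular identifiers, so such intervals cover counting error only.

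Compared within a library, the share at Hba exceeded that at Hbb by 2.62 ± 1.07 percentage points (SD, n = 3), and in 3 of 3 libraries. Hbb lay below Slc25a37 by a difference of -3.66 ± 2.16 points, also in 3 of 3 libraries, while Hba minus Slc25a37 was -1.05 ± 1.88 points and changed sign between libraries. These sizes depended on the nearest reads: with reads within 5 kb left out, Hba minus Hbb was 1.11 points. Hba then had 55.0%, 61.0% and 65.8% and Slc25a37 58.6%, 65.5% and 66.9%, so that Hba was lower in 3 of 3 libraries, by a mean difference of -3.10 points. Each difference was tested by an exact two-sided paired permutation test, which with 3 pairs cannot go below 0.25; the p-values were 0.25, 0.25 and 0.50. This test was run on 7 measures and 3 pairs of viewpoints, 21 tests in all. All 3 libraries went the same way in 15 of them, which have the smallest possible p of 0.25, or 0.35 after Benjamini-Hochberg adjustment. The sizes and SDs below are therefore the result, and the p is not repeated.

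Most reads on the viewpoint's chromosome lay near the promoter, and the 3 promoters divided them differently between distance bands. In the following, contact is given per 100000 of the reads that fell over 2 kb from the viewpoints but on the same chromosome. The band from 10 to 50 kb, both sides together, held 34.4% ± 0.98 of those reads at Hba, 33.8% ± 2.14 at Hbb and 38.7% ± 1.99 at Slc25a37 (SD, n = 3). The band from 2 to 10 kb held 14.5% ± 1.20, 8.94% ± 0.56 and 16.4% ± 1.41. Reads between the gene copies also lie within 10 kb of a viewpoint but were counted apart. They made up 9.07% ± 0.81 at Hba and 4.36% ± 0.57 at Hbb, and Slc25a37 has no such stretch. From 50 to 100 kb the order changed, with 7.53% ± 0.38 at Hba, 6.97% ± 0.58 at Hbb and 4.51% ± 0.23 at Slc25a37. Between 500 kb and 5 Mb, Hba held 6.51% ± 0.18, against 11.8% ± 0.93 at Hbb and 11.3% ± 0.85 at Slc25a37.

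The bands were tested with edgeR's quasi-likelihood test on all reads more than 2 kb from the viewpoints, with library as a block, and 17 of 22 comparisons passed an adjusted p of 0.05 (77.3% called). Without the replicate block 10 passed (4, 4 and 2 in Hba against Hbb, Hba against Slc25a37 and Hbb against Slc25a37). The spread was estimated jointly over the bands, and the small p-values depend on that sharing. The 3 libraries remain the only replicates. Contact at 2 to 10 kb was lower at Hbb than at Slc25a37 on the log2 scale (-0.96 ± 0.02 SE, adjusted p = 3.9e-27), and higher at Hba than at Hbb by 0.76 ± 0.02 (adjusted p = 7.9e-25). From 500 kb to 5 Mb, Hba was lower than Hbb (-0.79 ± 0.04, adjusted p = 1.6e-18) and lower than Slc25a37 (-0.81 ± 0.04, adjusted p = 1.6e-18), whereas Hbb minus Slc25a37 was -0.03 ± 0.04 (adjusted p = 0.53). Other chromosomes took more of the reads at Hbb than at Slc25a37 (0.14 ± 0.05, adjusted p = 0.013); this call was lost without library 1 and without library 2, at 0.12 in each case, and without the replicate block, at 0.14. With reads between the gene copies left out, Hba was lower than Slc25a37 at 2 to 10 kb (-0.20 ± 0.02, adjusted p = 6.3e-09). This call was lost with a 5 kb exclusion zone (-0.03) and without the block. Of all reads more than 2 kb from the viewpoints, this band held 9.37% at Hba and 10.7% at Slc25a37. A further 5.85% lay between the Hba copies, so the direction holds only with those left out. From 50 to 100 kb, Hba was higher than Slc25a37 by 0.71 ± 0.09 and Hbb by 0.54 ± 0.09, with adjusted p-values of 6.3e-09 and 1.3e-06. Reads beyond 5 Mb made up 21.3% ± 2.14 at Hba, 27.7% ± 3.10 at Hbb and 24.1% ± 2.48 at Slc25a37, and the listed chromosome ends lie at 122 Mb, 153 Mb and 125 Mb. The fit, which takes no account of chromosome length, called all 3 pairs here, Hba minus Hbb at -0.31, Hba minus Slc25a37 at -0.20 and Hbb minus Slc25a37 at 0.11, the last lost without the block. Per Mb of chromosome beyond 5 Mb the values in libraries 1 to 3 were 212.5, 178.3 and 180.6 at Hba. Hbb had 219.2, 181.6 and 181.5, while Slc25a37 had 233, 192 and 203. Slc25a37 was highest and Hba lowest in each library; the values per Mb were not tested.

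Contact between the gene copies was higher at Hba than at Hbb. Per kb of listed fragment between the copies, Hba had 1473, 1422 and 1679 reads per 100000 in libraries 1 to 3, and Hbb had 506, 613 and 657. The Hba values all lay above the Hbb values. In the band fit the difference was 1.12 ± 0.14 on the log2 scale (adjusted p = 1.1e-08), although the stretch with fragments more than 2 kb from a viewpoint is shorter at Hba, at 5.95 kb against 7.37 kb.

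**Figure D1:**
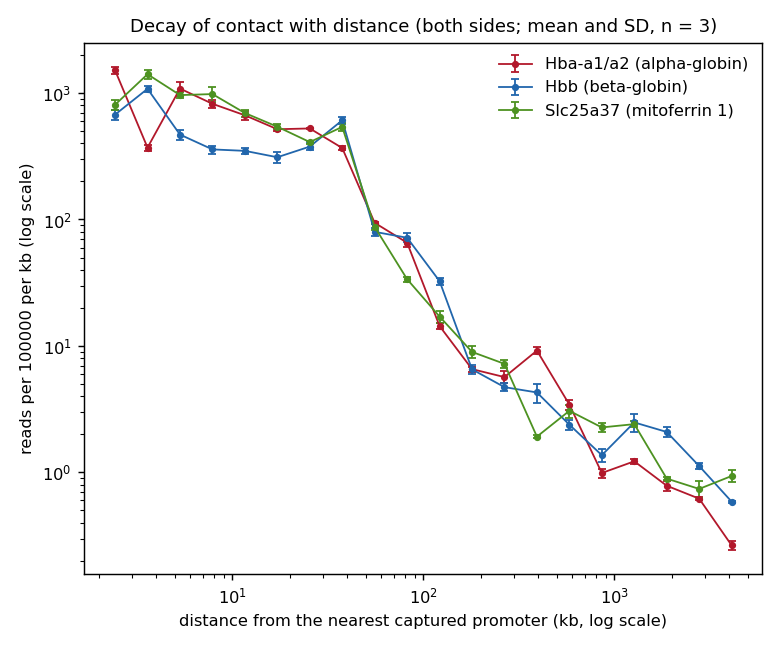
Contact in reads per 100000 per kb (log axis) against distance from the nearest captured promoter in kb (log axis), both sides together; points are means and bars SDs of the 3 control libraries. Between 10 and 100 kb the Hbb line falls with a slope of -0.85 and the Slc25a37 line with a slope of -1.51, and all 3 lines drop steeply near 50 kb.

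The fall of contact with distance had a similar overall slope at the 3 promoters but a different shape. Over 10 kb to 1 Mb, the slope of log10 contact on log10 distance was -1.57 ± 0.02 at Hba, -1.52 ± 0.05 at Hbb and -1.59 ± 0.03 at Slc25a37 (SD, n = 3). Within each library Hbb had the shallowest slope and Slc25a37 the steepest, with 0.08 ± 0.02 between them. Over the nearer decade, 10 to 100 kb, the slopes were -1.24 ± 0.04, -0.85 ± 0.02 and -1.51 ± 0.07, and the libraries of the 3 viewpoints did not overlap. Over 100 kb to 1 Mb they were -1.07 ± 0.02, -1.39 ± 0.11 and -1.11 ± 0.06, so that Hbb was then the steepest in each library, and Hba and Slc25a37 overlapped.

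At Hbb the reads lay farther out than at the other promoters. Reads between the gene copies were left out of these distances. The distance holding 50% of the other reads within 500 kb was 26.7, 25.9 and 25.6 kb at Hba in libraries 1, 2 and 3. At Slc25a37 it was 25.4, 24.3 and 23.6 kb. At Hbb it was 34.0 kb, the same fragment, in all 3 libraries. Hba minus Hbb was -7.91 ± 0.57 kb, and Hbb exceeded Slc25a37 by 9.54 ± 0.91 kb. Hba exceeded Slc25a37 by 1.63 ± 0.36 kb, which turned to -0.350 kb when reads within 5 kb were left out. The distance holding 90% was 111 ± 13.7 kb at Hba, 108 ± 3.00 kb at Hbb and 76.8 ± 6.32 kb at Slc25a37, so that the globin promoters differed by less than their spread and both lay above Slc25a37 in every library. In a window of 1 Mb in place of 500 kb, Hba exceeded Hbb by 61.2 kb and Hbb exceeded Slc25a37 by only 3.95 kb.

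**Figure D2:**
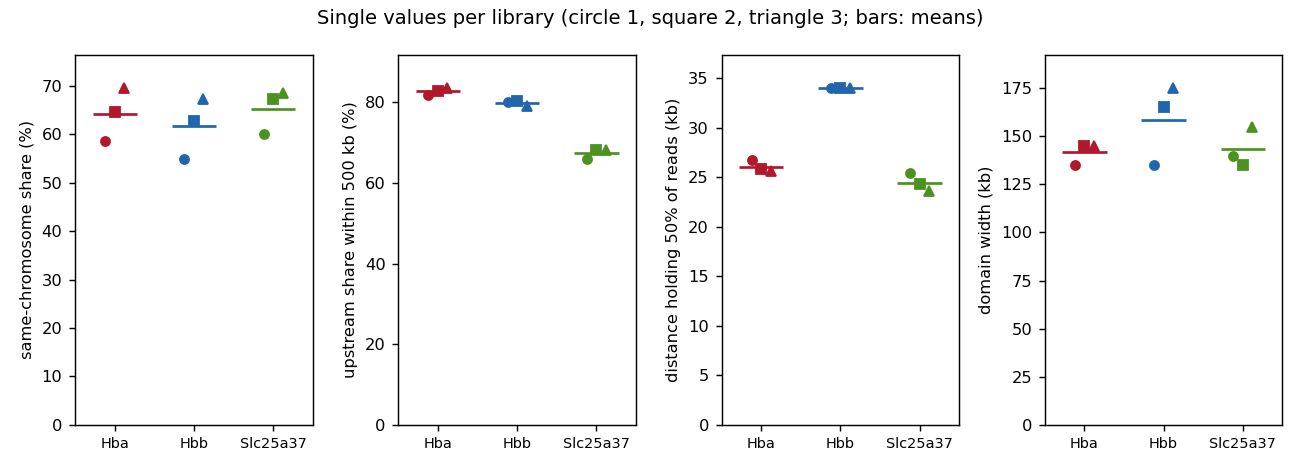
Same-chromosome share (%), upstream share within 500 kb (%), distance holding 50% of reads (kb, without reads between gene copies) and domain width (kb) for the 3 viewpoints; symbols are the 3 control libraries and bars their means. The upstream shares of Slc25a37, 65.9 to 68.2%, lie below those of both globin viewpoints, while the same-chromosome shares, and the domain widths at the 0.2% threshold plotted, overlap. The Hbb widths overlap with the others only through their narrowest library.

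All 3 promoters contacted their upstream side more than their downstream side, and Slc25a37 did so least. Of reads within 500 kb on either side, 81.9%, 82.7% and 83.5% lay upstream at Hba in libraries 1, 2 and 3. At Hbb the upstream shares were 80.1%, 80.5% and 79.1%. At Slc25a37 they were 65.9%, 68.2% and 68.2%, and no library overlapped with those of the globin promoters. Hba exceeded Slc25a37 by 15.3 ± 0.74 percentage points, Hbb exceeded it by 12.45 ± 1.63, and Hba exceeded Hbb by 2.85 ± 1.36 (SD, n = 3).

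**Figure D3:**
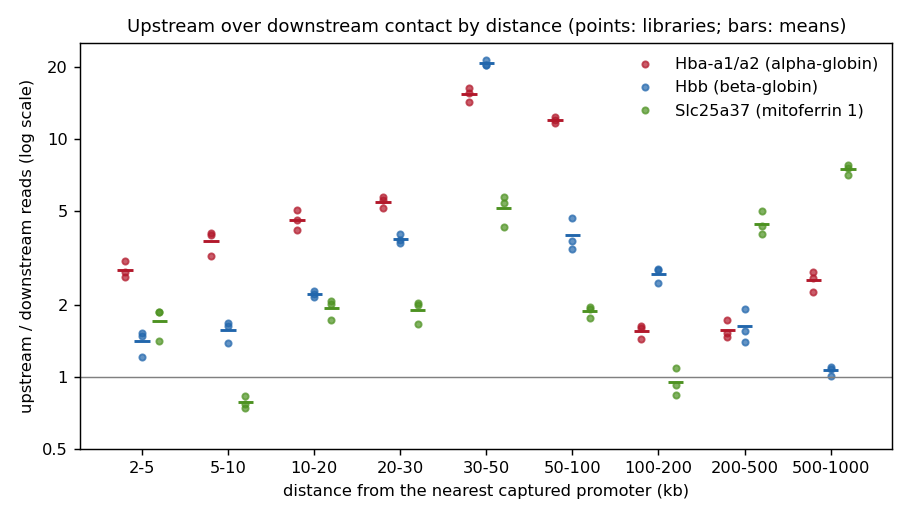
Upstream reads divided by downstream reads (log axis) in 9 ranges of distance in kb, for each viewpoint; points are the 3 control libraries and short bars their means. The ratio is highest at 30 to 50 kb for Hba and Hbb, at 15.4 and 20.8, and at 500 to 1000 kb for Slc25a37, at 7.44.

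The asymmetry depended on distance. At 2 to 5 kb the ratio of upstream to downstream reads was 2.82 ± 0.23 at Hba, 1.41 ± 0.17 at Hbb and 1.72 ± 0.27 at Slc25a37 (SD, n = 3). At 30 to 50 kb it reached 15.4 ± 1.06, 20.8 ± 0.57 and 5.12 ± 0.74. At Hba it was still 11.98 ± 0.34 at 50 to 100 kb, where Hbb had 3.94 ± 0.63 and Slc25a37 1.89 ± 0.10, and it fell to 1.56 ± 0.11 at 100 to 200 kb. Slc25a37 had 2 ranges below 1, 0.78 ± 0.05 at 5 to 10 kb and 0.95 ± 0.12 at 100 to 200 kb, where library 3 was at 1.09. Beyond 200 kb Slc25a37 became the most one-sided promoter, with 4.41 ± 0.51 at 200 to 500 kb against 1.58 ± 0.15 at Hba and 1.63 ± 0.27 at Hbb.

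Upstream and downstream bins of 5 kb at the same distance were then tested within each viewpoint with edgeR's quasi-likelihood test, library as a block. At Hba 80 of 99 bins passed (80.8% called), 52 higher upstream and 28 higher downstream. Within 100 kb all 20 Hba bins were higher upstream, and of the bins from 200 to 500 kb 24 were higher upstream and 22 downstream. At Hbb 56 of 84 bins passed (66.7% called), 49 higher upstream and 7 higher downstream, and within 50 kb all 10 were higher upstream. Without library 2, 35 Hbb bins passed. Among bins with at least 2 kb of listed fragments on both sides, an alternative chosen after seeing the data, 45 were higher upstream and 2 downstream. At Slc25a37 32 of 37 bins passed (86.5% called), 24 higher upstream and 8 higher downstream. Without library 1, 21 of 33 passed, and with no filter on low counts 58 of 100, 50 of them higher upstream. With the filter, a bin had to reach 60 reads over both sides. The 6 bins tested beyond 200 kb at Slc25a37 entered largely through their upstream reads, and all 6 were higher upstream.

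The largest upstream excess at Hba was at 75 to 80 kb (log2 difference 4.95 ± 0.16 SE). Upstream contact there was 853, 861 and 785 per 100000 and downstream contact 28.8, 23.7 and 27.7. The downstream side had 59 reads, so this bin reached the minimum of 60 only with its upstream reads. At 30 to 35 kb the Hba difference was 4.21 ± 0.12, and at 80 to 85 kb 4.20 ± 0.15. The largest excesses at Hbb were 4.62 ± 0.06 at 30 to 35 kb, 4.30 ± 0.08 at 40 to 45 kb and 4.24 ± 0.09 at 35 to 40 kb. At Slc25a37 they lay far from the gene, 4.07 ± 0.39 at 225 to 230 kb, 3.55 ± 0.46 at 190 to 195 kb and 3.51 ± 0.41 at 200 to 205 kb. Upstream reads at 225 to 230 kb of Slc25a37 were 244, 256 and 308 per 100000, against 7.28, 20.5 and 21.6 downstream. These Slc25a37 bins reached the minimum of 60 reads only with their upstream reads, so their differences are a description. In the order named, they had 174, 63 and 106 reads upstream over all libraries, and 10, 5 and 9 downstream.

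The largest downstream excesses differed between the promoters in place. At Hba the largest were at 235 to 240 kb (-3.33 ± 0.35, upstream 10.4 ± 2.05 and downstream 108 ± 37.2 per 100000), at 255 to 260 kb (-3.04 ± 0.38) and at 160 to 165 kb (-2.88 ± 0.41). At Slc25a37 the largest were at 140 to 145 kb (-2.04 ± 0.37), 135 to 140 kb (-1.62 ± 0.32) and 95 to 100 kb (-1.25 ± 0.27). The last was no longer called without library 1, at -1.06. The bins at 140 to 145 and 135 to 140 kb also reached the minimum only with their downstream reads. The bin at 5 to 10 kb was also higher downstream at Slc25a37, with 4102 ± 254 upstream and 5268 ± 621 downstream (-0.36 ± 0.12, adjusted p = 0.0049); it was singled out after its values were seen. At Hbb the bins at 200 to 205 kb and 95 to 100 kb had the largest downstream excess, but listed fragments covered only 0.218 kb and 0.433 kb of their upstream 5 kb, so these values compare unequal lengths. The third, at 135 to 140 kb, was -1.74 ± 0.33 and was no longer called without library 2, at -1.47. Its covered lengths were also unequal, 2.745 kb upstream and 4.84 kb downstream. With 23 reads upstream, it too reached the minimum only with its downstream reads.

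**Figure D4:**
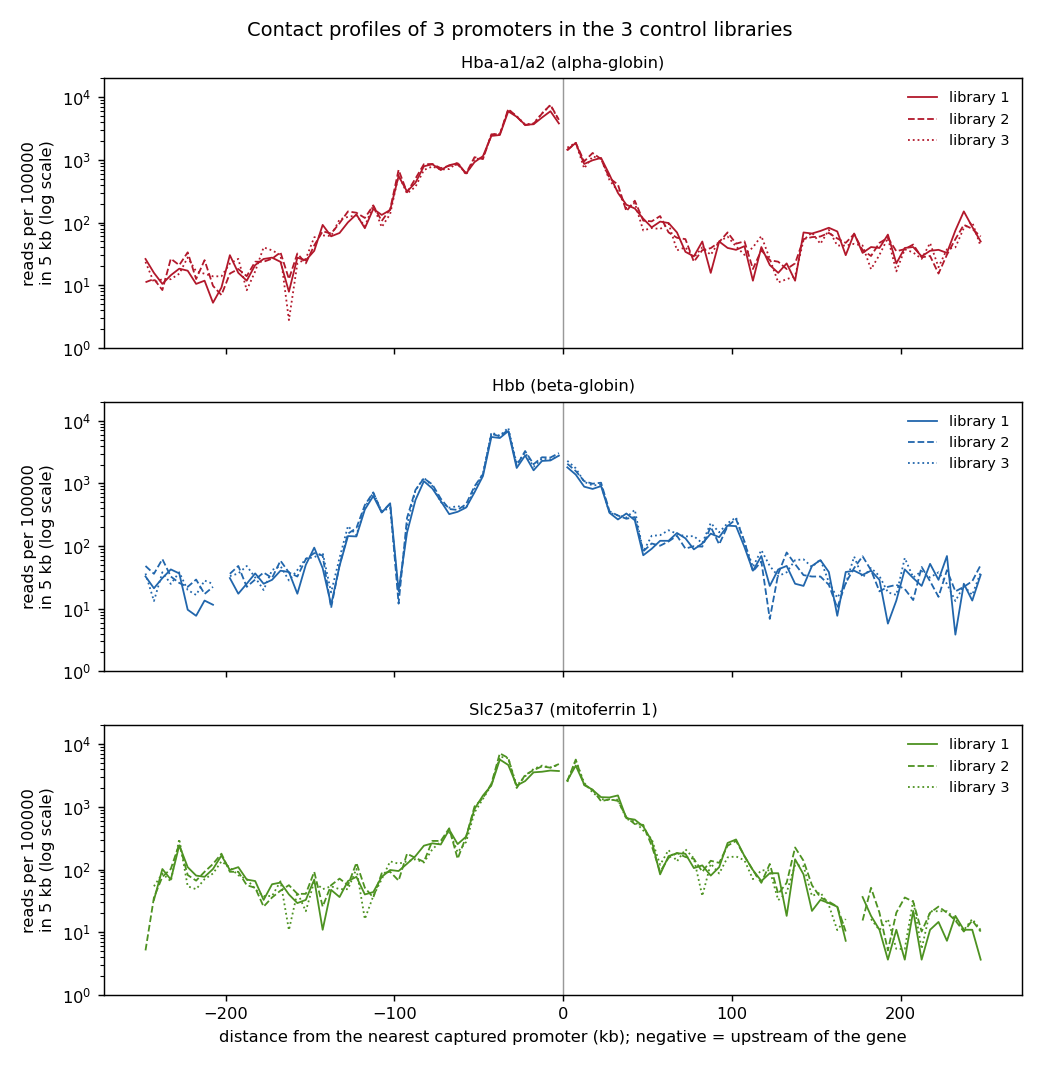
Reads per 100000 in 5 kb bins (log axis) against distance from the nearest captured promoter in kb, negative upstream, for the 3 viewpoints; each line is a control library, and bins with 0 reads are left blank. Each profile has a second rise 30 to 40 kb upstream, reaching 6266 at Hba, 7249 at Hbb and 6399 at Slc25a37, where the downstream bins at the same distances have 340, 294 and 662.

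Each promoter had a ridge of contact at nearly the same distance upstream, as counted from the nearest viewpoint stretch. Beyond 20 kb, the highest 5 kb bin was 30 to 35 kb upstream at Hba, with 5960, 6488 and 6349 reads per 100000 in libraries 1 to 3. It was also 30 to 35 kb upstream at Hbb, with 6840, 7172 and 7734, and it was 35 to 40 kb upstream at Slc25a37, with 5703, 7159 and 6335. The ridge stood out most at Hbb, where it was 3.99 ± 0.38 times the lowest bin between 5 kb and the ridge, at 15 to 20 kb. At Slc25a37 that ratio was 3.02 ± 0.50, to the bin at 25 to 30 kb, and at Hba 1.72 ± 0.08, to the bin at 20 to 25 kb. These bins were picked by their values, so the ratios are a description. The downstream bin at the ridge's distance had 340 ± 56.7, 294 ± 24.3 and 662 ± 21.7 reads per 100000, and the ridge was 18.7 ± 2.29, 24.7 ± 1.25 and 9.66 ± 0.91 times as high.

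The ridges differed in breadth. At Hbb contact stayed high over 3 bins, with 7249 ± 452, 5574 ± 240 and 6064 ± 502 at 30 to 35, 35 to 40 and 40 to 45 kb. At Hba it fell after the first of them to 2553 ± 46.2 and 2517 ± 89.0, and at Slc25a37 it was 5569 ± 776, 6399 ± 730 and 2266 ± 71.2. At 40 to 45 kb Hbb was higher than Hba (Hba minus Hbb -1.27 ± 0.07) and than Slc25a37 (1.41 ± 0.08). Nearer the gene Hbb was lowest in place of highest: at 5 to 10 kb upstream Hba had 6990 ± 871, Slc25a37 4102 ± 254 and Hbb 2444 ± 135. Hba minus Hbb was 1.51 ± 0.07 there, and all of these differences had adjusted p-values under 0.05 by edgeR's quasi-likelihood test.

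Smaller rises followed farther out at each promoter, again chosen after their values were seen. At Hba, the bin 95 to 100 kb upstream had 608 ± 75.6 reads per 100000, between 303 ± 11.2 before it and 153 ± 13.9 after it. At Hbb, 80 to 85 kb upstream had 1174 ± 78.6 and 110 to 115 kb upstream 687 ± 49.9, while 65 to 70 kb had 374 ± 44.9. On the downstream side Hbb had 255 ± 41.4 at 100 to 105 kb, and Slc25a37 had 250 ± 76.8 at the same distance, against 41.4 ± 4.65 at Hba.

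The summed width of the domain depended on its threshold. It was taken as the run of 5 kb bins outward from the viewpoint with at least 0.2% of chromosome reads, ended by 2 successive bins below that. The width was 142 ± 5.77 kb at Hba, 158 ± 20.8 kb at Hbb and 143 ± 10.4 kb at Slc25a37, and the values of the libraries overlapped. The sides did differ in their parts. Upstream it was 100 kb in each library at Hba, 90, 120 and 130 kb at Hbb, and 85, 80 and 80 kb at Slc25a37. Downstream it was 35, 45 and 45 kb at Hba, 45 kb in each library at Hbb, and 55, 55 and 75 kb at Slc25a37, which lay above all libraries of both globin promoters. In library 1 the upstream run at Hbb ended at 90 kb, since the next 2 bins were below 0.2%. At 95 to 100 kb, however, listed fragments covered only 0.433 kb. That bin had 19.2 reads per 100000, and the bin at 90 to 95 kb had 163.5. From 100 to 120 kb the bins had 479, 342, 629 and 383. The overlap of Hbb with the other promoters at 0.2% rests on library 1, and so on this poorly covered bin. With a threshold of 0.5% the summed widths were 115, 130 and 110 kb at Hba, 80 kb in each library at Hbb, and 100, 105 and 100 kb at Slc25a37. No promoter then overlapped with another, and Hbb, the widest on average at 0.2%, was the narrowest.

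Regions around the genes were named from approximate mm9 borders that are background knowledge and not part of the tables, and were set to whole fragments. At Hba, the stretch holding Nprl3 and the enhancer elements (chr11:32131944-32170701, 38.8 kb of fragments) took 29.2% ± 0.91 of the chromosome's reads, and the α-globin gene block, which also holds the embryonic gene Hba-x, took 23.2% ± 1.57. Per kb of fragment the gene block had 1129 ± 76.1 reads per 100000 and the Nprl3 stretch 755 ± 23.6. The upstream neighbours beyond it, the stretch of Mpg, Rhbdf1, Snrnp25 and Il9r, had 136 ± 6.85 per kb. Windows of 1 kb on either side of approximate element centres had 1477 ± 137 per kb at R2, 1371 ± 155 at R4, 1006 ± 42.5 at R3, 512 ± 22.5 at Rm and 496 ± 8.84 at R1. In libraries 1 to 3 R2 had 1330, 1601 and 1501 and R4 1195, 1435 and 1485, so R2 was higher in each, by less than the range between libraries. Rm, with 499, 499.9 and 538, exceeded R1, with 494, 488 and 506, in each library.

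Over stretches with these approximate borders, the order of near and far was the other way round at Hbb. At Hba, the single windows at R2 and R4, with 1477 and 1371 per kb, did exceed the gene block, with 1129. The windows at R3, Rm and R1 did not. The locus control region (chr7:111003150-111023773) had 1026 ± 65.0 reads per 100000 per kb of fragment, more than the stretch of the adult genes (640 ± 55.3) and that of the embryonic genes Hbb-bh1 and Hbb-y (489 ± 37.0), and it took 21.1% ± 1.34 of chromosome reads. At Slc25a37 the near upstream region, chr14:69906474-69959889, took 38.3% ± 3.21 of chromosome reads at 717 ± 60.2 per kb. The gene body with its near downstream side, chr14:69859913-69900081, had 423 ± 6.63 per kb.

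**Figure D5:**
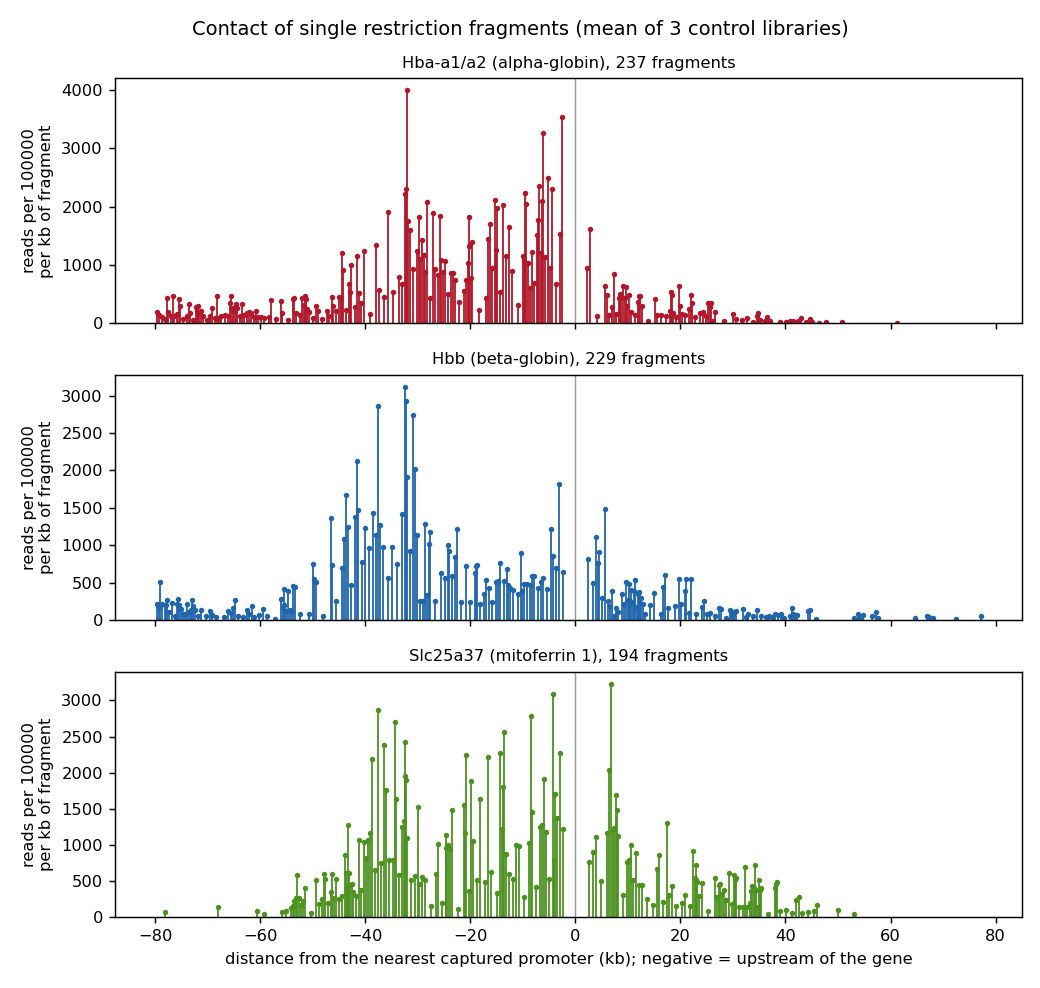
Reads per 100000 per kb of fragment for single DpnII fragments (mean of the 3 control libraries) against distance in kb within 80 kb, negative upstream; fragments have at least 100 bp and 30 reads, and those between gene copies are left out. Tall fragments crowd 30 to 40 kb upstream at each promoter, with a maximum of 3997 at Hba.

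Single fragments of at least 100 bp with at least 30 reads were ranked by reads per kb, which is a description with no test. There were 357 of them at Hba, 329 at Hbb and 195 at Slc25a37 between 2 and 500 kb. The 20 highest beyond 10 kb were all upstream at each of the promoters. At Hba all 20 lay in the Nprl3 and enhancer stretch, 12.6 to 38.1 kb away. At Hbb 19 lay in the locus control region and 1 among the embryonic genes, 22.6 to 46.6 kb away, and at Slc25a37 all 20 were in the upstream region, 13.5 to 38.7 kb away. The 10 fragments with most reads held 11.6% ± 0.51 of the reads within 500 kb at Hba, 14.2% ± 0.82 at Hbb and 11.4% ± 0.26 at Slc25a37, each library thinned to 12150 reads.

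At Hba the highest fragment was chr11:32150164-32150267, 104 bp long, in the R2 window 32.1 kb upstream. It had 306, 344 and 265 reads in libraries 1 to 3, or 3997 ± 554 per 100000 per kb. This is 11.2 times the median fragment, of both sides together, within 1.5-fold of its distance. The next, chr11:32179642-32179816, 2.59 kb upstream, had 3533 ± 478 per kb, and chr11:32176031-32176155, 6.22 kb upstream, had 3262 ± 1017. Then came chr11:32192648-32192980 between the gene copies with 2646 ± 260, and chr11:32176950-32177115, 5.28 kb upstream, with 2496 ± 287. So 1 of the 5 highest Hba fragments lay in the enhancer stretch and 4 in the gene block.

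At Hbb 4 of the 5 highest lay in the locus control region. The first was chr7:111009552-111009747, 32.5 kb upstream, with 266, 373 and 412 reads and 3119 ± 453 per 100000 per kb, 13.0 times its distance median. Its neighbour chr7:111009378-111009551 had 2933 ± 570. The third, chr7:110973054-110973294, lay between the gene copies, 2.12 kb from a viewpoint, and had 2919 ± 412. The others were chr7:111014601-111014739, 37.5 kb upstream, with 2866 ± 592, and chr7:111007929-111008141, 30.9 kb upstream, with 2745 ± 213. The means of all 5 lay within 1 SD of the first.

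At Slc25a37 the highest fragment was downstream, in the gene body: chr14:69895371-69895514, 6.72 kb away, had 97, 104 and 95 reads and 3235 ± 682 per 100000 per kb. The other 4 were upstream. They were chr14:69908652-69908822 at 4.34 kb with 3094 ± 306, chr14:69941833-69942029 at 37.5 kb with 2862 ± 566, chr14:69912856-69912963 at 8.52 kb with 2789 ± 318, and chr14:69938605-69938734 at 34.3 kb with 2706 ± 902. Library 1 had the lowest value per kb in each of these 5 fragments, and all 5 means lay within 1 SD of the first.

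The 5 highest per kb changed with the length filter. With a minimum of 250 bp, 1 of the 5 Hba fragments and none of the Hbb or Slc25a37 fragments stayed on the list, and with no minimum none did at any promoter, where fragments of 16 to 74 bp then led. Beyond 10 kb, all 5 of each list were upstream under each of these settings and when ranked by reads per fragment, and at Hbb all 5 were in the locus control region.

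Ranked against the median fragment at the same distance, fragments far from the gene came first at Hba. That median takes both sides together, so the ratios of upstream fragments also hold the asymmetry between the sides. At Hba, upstream contact at 50 to 100 kb was 11.98 ± 0.34 times downstream contact. The first, chr11:31741295-31741400, 441 kb upstream, was 23.2 times its distance median but rested on 5, 12 and 14 reads. The next 4 lay 76.7 to 97.5 kb upstream, at 14.2 to 15.3 times, with 20 to 58 reads a library. At Hbb 4 of the 5 lay in the locus control region, 37.5 to 46.6 kb upstream, at 18.5 to 20.9 times, and chr7:111095630-111095742, 119 kb upstream, was at 18.7 times. At Slc25a37 chr14:70132709-70133430, 229 kb upstream, was at 15.8 times with 15, 12 and 9 reads, and the other 4 lay 36.4 to 53.0 kb upstream at 6.20 to 7.81 times.

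Bins of 5 kb at the same side and distance were compared between the promoters with edgeR's quasi-likelihood test, library as a block. In Hba against Hbb 98 of 163 bins passed (60.1% called), 55 higher and 43 lower at Hba. When counts were scaled to reads within 500 kb in place of chromosome reads, 47 were higher and 58 lower, and the median log2 difference over all bins moved from 0.15 to -0.10. In Hba against Slc25a37 125 bins passed (76.7% called), 74 higher and 51 lower at Hba. In Hbb against Slc25a37 86 passed (52.8% called), 46 higher and 40 lower at Hbb. Counts of calls are set by depth as well as by size, and Slc25a37 has the fewest reads.

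Within 50 kb downstream, Slc25a37 was higher than Hba in 10 of 10 bins and higher than Hbb in 10 of 10. At 30 to 35 kb downstream it had 1359 ± 146 reads per 100000, against 340 ± 56.7 at Hba and 294 ± 24.3 at Hbb, differences of -2.02 ± 0.12 and -2.22 ± 0.12 on the log2 scale. From 50 to 100 kb downstream, Hba was lower than Slc25a37 in 9 of 10 bins and lower than Hbb in 8 of 10. On the upstream side from 50 to 100 kb the direction turned: Hba was higher than Slc25a37 in 9 of 10 bins, with none lower, and Hbb was higher than Slc25a37 in 7, with 1 lower. The bin at 95 to 100 kb compares unequal lengths. Hbb had 15.9 reads per 100000 over 0.433 kb of listed fragments there, and Slc25a37 95.1 over 4.86 kb. Counts beyond 200 kb are not given by direction, since bins there had to reach 90 reads over the 9 columns and so entered largely through the promoter where they are high.

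Among bins with reads at all 3 promoters, the largest fitted difference was in Hba contact far upstream. At 435 to 440 kb upstream Hba had 157, 150 and 177 reads per 100000, Hbb had 1.92, 3.43 and 4.97, and Slc25a37 had 7.28, 5.11 and 0. The log2 differences were 5.43 ± 0.43 and 5.07 ± 0.53. The bin passed the filter only through its 356 Hba reads, against 6 at Hbb and 3 at Slc25a37, so its differences are a description. In the next bin, 440 to 445 kb, Hba had 191 ± 10.8, but no listed fragment lay there at Hbb, so that comparison says nothing about Hbb. The bin at 200 to 205 kb upstream, with 0.218 kb of listed fragments at Hbb, and the bin at 170 to 175 kb downstream, with 0.602 kb at Slc25a37, are of the same kind, as is 245 to 250 kb upstream with 1.79 kb at Slc25a37. At 400 to 405 kb downstream Slc25a37 had 0 reads over 4.11 kb of fragments, while Hba had 69 and Hbb 22, which just passed the minimum of 90 reads; no fold is given for it.

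Several far upstream bins were higher at Slc25a37. At 225 to 230 kb it had 269 ± 33.9 reads per 100000, against 18.2 ± 2.84 at Hba (-3.86 ± 0.33, adjusted p = 2.0e-27) and 33.5 ± 6.73 at Hbb (-3.00 ± 0.32, adjusted p = 4.7e-19). At 200 to 205 kb it had 160 ± 22.8, against 9.99 ± 3.51 at Hba (-3.98 ± 0.43), and at 205 to 210 kb 104 ± 18.3 against 9.61 ± 4.30 (-3.45 ± 0.45). Both of these bins reached the minimum of 90 reads only with the Slc25a37 reads, so their differences are a description. Hba had 22 and 21 reads in them, and Hbb 0 and 34. Hbb led Hba downstream at 85 to 90 kb, where Hba had 15.7, 39.0 and 30.5 and Hbb 158, 202 and 233 (-2.82 ± 0.26), and at 100 to 105 kb (-2.62 ± 0.22). It also led at 160 to 165 kb upstream, by a smaller difference (-2.21 ± 0.49), with 59 reads at Hbb and 17 at Hba. That bin reached the minimum of 90 reads only with the Hbb reads, so its difference is a description. Among bins with at least 2 kb of listed fragments at every promoter, which leaves out 5 of the 163, 94, 119 and 83 passed in Hba against Hbb, Hba against Slc25a37 and Hbb against Slc25a37.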

How the data were processed

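NG Capture-C counts of 3 control libraries at 3 viewpoints were used. The authors deposited raw read counts per DpnII fragment in mm9, with no scaling to depth. Trim Galore and Bowtie are named in the submitters' processing notes, with versions not given there. Control columns were matched by name; 7 further columns in each table match no sample and were not used.

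Viewpoints were gaps of at least 1500 bp in the tables. Reads more than 2 kb from them on the viewpoint chromosome set the scale, so the choice of scale moves all bins of a promoter together. Distance bands (all reads) and 5 kb bins to 500 kb with at least 90 reads over 9 columns (60 over 6 for upstream against downstream) were fitted with edgeR 4.0.16 in R 4.3.3, viewpoint or side plus library, with Benjamini-Hochberg adjustment at 0.05. Library is a block because the 3 viewpoints come from the same cells; band shares of the same library deviated together (r 0.764 to 0.962). Spread is shared across bins or bands, and small p-values depend on that sharing, with the 3 libraries as the only replicates. Single values used exact paired permutation tests (scipy 1.17.1, Python 3.11.15). Fits and measures were checked on simulated data. Alternatives were DESeq2 1.42.0, no block, other scales, bins, filters, windows and thresholds, a 5 kb exclusion zone and leaving out each library.

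The viewpoints, lists and tests were chosen with earlier results of these data known. Named fragments are the 5 highest per kb and, beyond 10 kb, the 5 highest against the distance median. Named bins are the 3 largest changes in each direction past 0.05. Reference promoters came from RefSeq, GRCm38.p6.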

Additional observations from a re-analysis of the deposited data

How the results depend on the processing

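Counting error is largest at Slc25a37, and the 3 libraries limit every exact test. Without the replicate block, bands passing numbered 4, 4 and 2 in Hba against Hbb, Hba against Slc25a37 and Hbb against Slc25a37, against 5, 6 and 6 with it; bins and sides stayed within 1.5 times. With 10 kb bins, fewer bins exist, and 80 passed in Hba against Slc25a37 and 43 in upstream against downstream at Hba. With no filter on low counts 58 passed in upstream against downstream at Slc25a37. Leaving out each library gave 35 to 56 there at Hbb and 21 to 33 at Slc25a37. A 5 kb exclusion zone gave same-chromosome differences of 1.11 (Hba minus Hbb) and -3.10 points (Hba minus Slc25a37), 50% distances of -0.350 (Hba minus Slc25a37) and 7.31 kb (Hbb minus Slc25a37), and top 10 fragment shares of 1.94 and 5.62 points for the same pairs. In the order Hba minus Hbb, Hba minus Slc25a37 and Hbb minus Slc25a37, it gave 90% distances of 18.4, 42.8 and 24.5 kb, and a 1 Mb window gave 61.2, 65.1 and 3.95 kb. In that order decay slopes differed by -0.39, 0.27 and 0.65 over 10 to 100 kb and by 0.32, 0.039 and -0.28 over 100 kb to 1 Mb. The 1 Mb window gave a 50% distance of 0.821 kb for Hba minus Slc25a37. Upstream shares of Hba minus Slc25a37 were 16.6 points in a 250 kb window and 14.2 in 1 Mb, and Hbb minus Slc25a37 was 10.8 in 1 Mb. Domain widths at 0.5% were 38.3, 16.7 and -21.7 kb in that order, and at 0.1% -21.7 kb for Hba minus Slc25a37 and -3.33 kb for Hbb minus Slc25a37. Of the 5 highest fragments, those kept with no minimum length, a 250 bp minimum and reads per fragment numbered 0, 1 and 1 for Hba, and 0 under each setting for both Hbb and Slc25a37. The cause was not tested. Among single bands 13 results lost their call under some setting and 5 gained one, and among single bins 3 lost theirs. The band between gene copies could not be computed with a 5 kb exclusion zone, since no Hba fragment is left there. The minimum of 2 kb of listed fragments was chosen after seeing the data and changed no count by over 1.5 times.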
